A study of Mus musculus with 4 samples.

Results

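Centrocytes that contained Myc transcripts were examined in 4 single-cell RNA libraries of mouse spleen. A member was any cell carrying the deposited annotation Centrocyte, the light zone B cell of the germinal center (GC), that had 1 or more Myc unique molecular identifiers (UMIs, each counted as 1 captured RNA molecule) in its library's count matrix. The rule selected 146 cells out of 2444 annotated centrocytes, 9804 annotated GC B cells and 39009 barcodes in all. WT and C held 22 members each, K held 49 and CK 53. Members were chosen on Myc, so Myc itself is given below only as a description and was left out of every test of single genes. The deposited scores were compared as they stand and may hold Myc.

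The cells were sorted as B220+IgD- splenocytes 10 days after immunization with sheep red blood cells. Every mouse, controls included, carried Cγ1-cre/+, which deletes floxed alleles in B cells that transcribe the Cγ1 constant region locus, mostly GC B cells. WT had no floxed allele, C was Crebbp fl/+, K was Kmt2d fl/+ and CK carried both floxed alleles, so each deletion was heterozygous. Per the study, the mice were female littermates of 8 weeks on a C57BL/6J background. There was 1 mouse and 1 library per genotype, so no test between genotypes was possible, and values are compared between genotypes only as descriptions with intervals that cover counting error. In all annotated GC B cells, Crebbp was at 68.4, 43.0, 38.6 and 38.0 CPM and Kmt2d at 18.5, 21.3, 9.85 and 15.1 CPM for WT, C, K and CK, where CPM is a gene's share of the summed UMIs on the usual library-size scale. The library labelled K, with no floxed Crebbp, was as low in Crebbp as C and CK, but 3' tags need not come from a deleted exon and so do not check the alleles. The test of Myc-positive against Myc-negative cells used the 4 libraries as its replicates.

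In the GC, B cells mutate their antibody genes and divide in the dark zone and are selected in the light zone. There a B cell takes up antigen through its B cell receptor and presents it to T follicular helper cells, which return help through CD40 ligand and cytokines. The receptor and CD40 signals together switch on MYC for a short time in the few centrocytes that are selected. MYC drives ribosome production and cell growth, and the selected cells then return to the dark zone to divide. CD40 acts mainly through NF-kB, a family of dimeric transcription factors (REL, RELA, RELB and the p50 and p52 subunits) that is held back by IkB proteins. The gene for the IkB protein IkBα, Nfkbia, is itself switched on by NF-kB, and its mRNA is widely used as a readout of recent NF-kB activity.

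The upstream sequences of 3 genes of this pathway are shown because the results turn on the first and second of them, and because these are the genes called higher below whose 250 bases before a RefSeq start site matched the kB site, the motif that NF-kB dimers bind. Capitals mark the match, on either strand, where forward and reverse matches can overlap. Nfkbia lies on the minus strand, at chr12:55492648-55492897 for this window, Nfkbid on the plus strand at chr7:30422156-30422405, before 1 of its 3 RefSeq starts, and Rel on the minus strand at chr11:23770970-23771219 (GRCm38.p6, sequences from RefSeq, each written in the direction of its gene).
Nfkbia: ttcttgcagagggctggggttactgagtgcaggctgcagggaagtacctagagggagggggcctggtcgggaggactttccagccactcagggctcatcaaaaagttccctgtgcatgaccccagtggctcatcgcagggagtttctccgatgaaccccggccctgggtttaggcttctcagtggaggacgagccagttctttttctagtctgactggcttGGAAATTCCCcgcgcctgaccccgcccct
Nfkbid: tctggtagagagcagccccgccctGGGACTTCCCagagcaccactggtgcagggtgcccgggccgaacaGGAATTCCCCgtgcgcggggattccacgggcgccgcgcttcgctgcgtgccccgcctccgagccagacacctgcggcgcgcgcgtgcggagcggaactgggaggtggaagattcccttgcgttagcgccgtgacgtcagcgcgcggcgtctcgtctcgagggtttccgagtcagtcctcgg
Rel: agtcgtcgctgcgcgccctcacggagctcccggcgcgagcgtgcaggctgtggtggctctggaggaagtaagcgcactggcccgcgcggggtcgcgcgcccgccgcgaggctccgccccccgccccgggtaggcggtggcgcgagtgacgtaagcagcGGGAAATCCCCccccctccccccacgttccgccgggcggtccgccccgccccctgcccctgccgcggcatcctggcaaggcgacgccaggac

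Centrocytes with a Myc UMI made up 5.76% of WT centrocytes (22 of 382, exact 95% interval 3.64 to 8.59%), 4.27% of C (22 of 515, 2.70 to 6.40%), 8.02% of K (49 of 611, 5.99 to 10.46%) and 5.66% of CK (53 of 936, 4.27 to 7.34%). The highest share was in K and the lowest in C, and their intervals just overlapped. Since a deeper cell is more likely to show a rare transcript, each cell was also thinned to 2000 UMIs, which left out 12, 34, 25 and 161 shallower centrocytes. The shares were then 3.24%, 2.91%, 4.78% and 4.52% for WT, C, K and CK, all with overlapping intervals, and the order of WT and CK turned around.

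Cells annotated Centroblast, the dividing cells of the dark zone, were deeper than centrocytes and a smaller share had a Myc UMI. Their share was 2.19%, 2.38%, 2.02% and 1.48% for WT, C, K and CK, at median depths of 4604 to 5526 UMIs against 2670 to 4741 in centrocytes. Thinned to 2000 UMIs, 0.159 to 0.575% of centroblasts and 2.91 to 4.78% of centrocytes retained a Myc UMI. The centrocyte share was above the centroblast share in every library, with intervals that overlapped in WT and C and not in K and CK. In early centroblasts the share was 15.8%, 9.09%, 8.42% and 6.14% for WT, C, K and CK, above that of centrocytes in every library, at median depths of 5128 to 6674 UMIs. Thinned, it was 10.5%, 1.82%, 4.28% and 2.94%, above that of centrocytes in WT and below it in C, K and CK. Transitioning cells, between the dark and light zone, were at 2.37 to 3.82%, between centroblasts and centrocytes in WT, K and CK and level with centroblasts in C. Prememory cells had larger shares than centrocytes, at 15.2%, 15.1%, 10.8% and 7.83% for WT, C, K and CK. Thinned, they were at 8.09%, 14.0%, 7.89% and 8.93%, with 9, 54, 17 and 59 shallower cells left out. They stayed above centrocytes in every library, and CK was no longer the lowest. The part of free RNA in these shares was not tested.

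**Figure D1:**
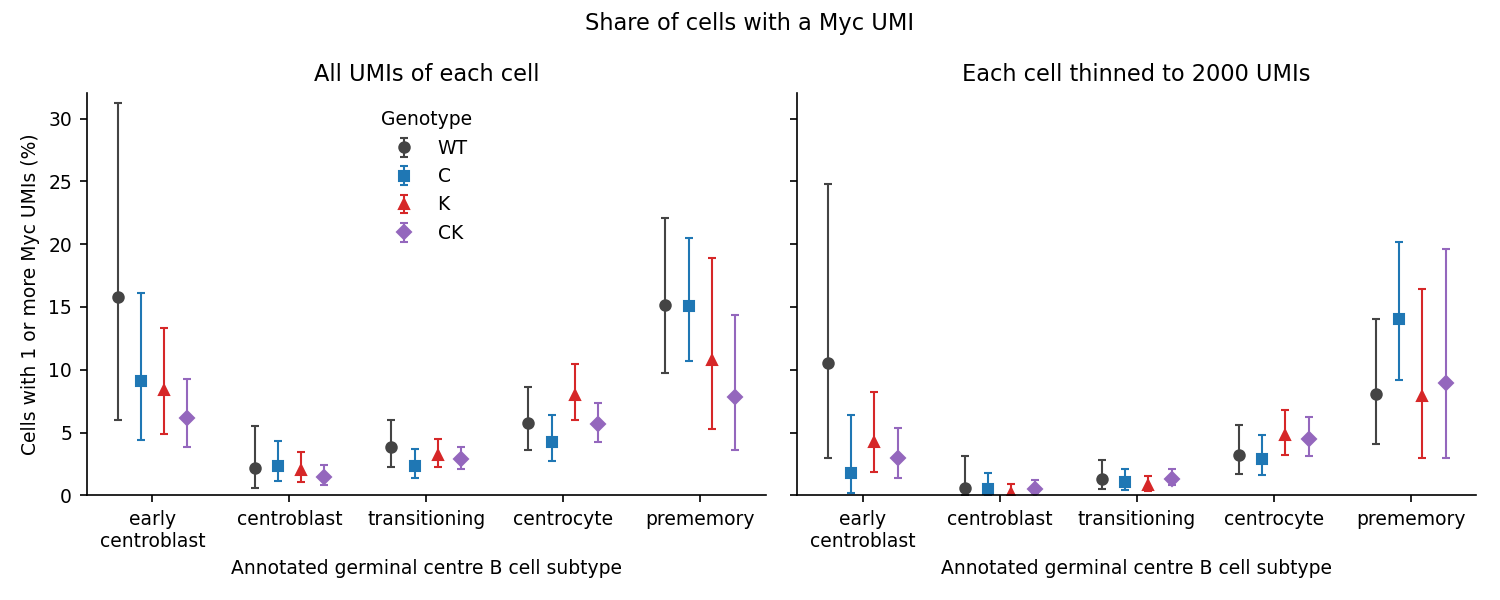
Percent of cells with 1 or more Myc UMIs by annotated subtype, with all UMIs (left) and after thinning each cell to 2000 UMIs (right). Points are libraries and bars are exact 95% binomial intervals. Centrocytes lie above centroblasts in all 4 libraries on both sides, and recycling cells, with 8 to 49 cells a library, are not drawn.

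Most members rested on few molecules. Of the 146 cells, 96 had 1 Myc UMI, 28 had 2 and 22 had 3 or more, up to 7. WT had 8 cells with 2 or more, C had 6, K had 23 and CK had 13, which made up 2.09%, 1.17%, 3.76% and 1.39% of their centrocytes. The cells just inside the rule were thus the 96 with 1 UMI, and those just outside it were the 2298 centrocytes with none captured, which does not show that they had no Myc RNA.

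Members were deeper than other centrocytes, with median UMIs of 5934 against 4701 in WT, 4007 against 3472 in C, 4816 against 3785 in K and 3890 against 2632 in CK. Each was therefore paired with a Myc-negative centrocyte of its own library that had the nearest UMI total. The matched medians were 5929, 4003, 4809 and 3889 UMIs. The annotation held no cell of 2500 or more genes: the highest count in its table was 2499. Among members 28 of 146 (19.2%) had 2000 or more genes, compared with 197 of 2298 (8.57%) Myc-negative centrocytes, and how many centrocytes of each kind the limit kept out was not tested. Libraries shared 17 to 31 barcodes per pair, and 1 centrocyte barcode occurred in both K and CK.

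The light zone label was checked against its markers. Cd83, a surface activation marker of light zone cells, was at 960, 940, 903 and 720 CPM in the members of WT, C, K and CK, compared with 60.3 to 86.7 CPM in centroblasts. Cxcr4, the chemokine receptor that holds cells in the dark zone, was at 0 to 14.6 CPM in members and 27.2 to 38.5 CPM in centroblasts. The proliferation gene Mki67 stood at 24.4 to 58.4 CPM in members and at 391 to 961 CPM in centroblasts. The values of members lay outside those of centroblasts in all 3 genes. For Cxcr4 they rested on 0, 1, 2 and 3 UMIs in WT, C, K and CK, too few to set members apart. Not every light zone marker was high in members. S1pr2 was at 65.1, 151, 113 and 102 CPM in members and at 106, 227, 118 and 131 CPM in matched Myc-negative centrocytes. Cd40, Cd86, Fas and Bcl6 are given below. The annotation was itself made from expression of the same cells, so this is a description.

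The working markers of the Myc-positive state were Myc, Ccnd2, Nfkbia and Batf. By construction Myc was at 277, 335, 386 and 355 CPM in members of WT, C, K and CK and at 0 in matched cells. Nfkbia was high in the members of each library. Ccnd2, encoding the G1 cyclin D2, and Batf, an AP-1 factor of activated lymphocytes, had higher CPM in C, K and CK members. Batf in C rested on few cells. WT members had no Ccnd2 UMI and few of Batf, so the label's marker set was only partly met in WT.

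Genes of the NF-kB and B cell receptor responses were higher in Myc-positive centrocytes than in their matched neighbours, and a smaller part of the growth lists was called. Counts of each set of cells were summed within a library, and the 8 sums were compared with edgeR's quasi-likelihood test with library as a block. Of 2358 genes that passed the filter on low counts, 41 were higher (1.74% of those tested) and 6 lower (0.254%) at an adjusted p under 0.05, with Benjamini-Hochberg adjustment over all genes tested, here and below. The median log2 fold change of all genes was -0.00025. The median mitochondrial share was lower in members in 4 of 4 libraries, by 0.627 percentage points (SD 0.185, exact sign-change p = 0.125, the smallest that 4 libraries allow), and the median unspliced share by 1.72 points (SD 2.25, p = 0.125, exact). Their part in the results below was not tested.

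**Figure D2:**
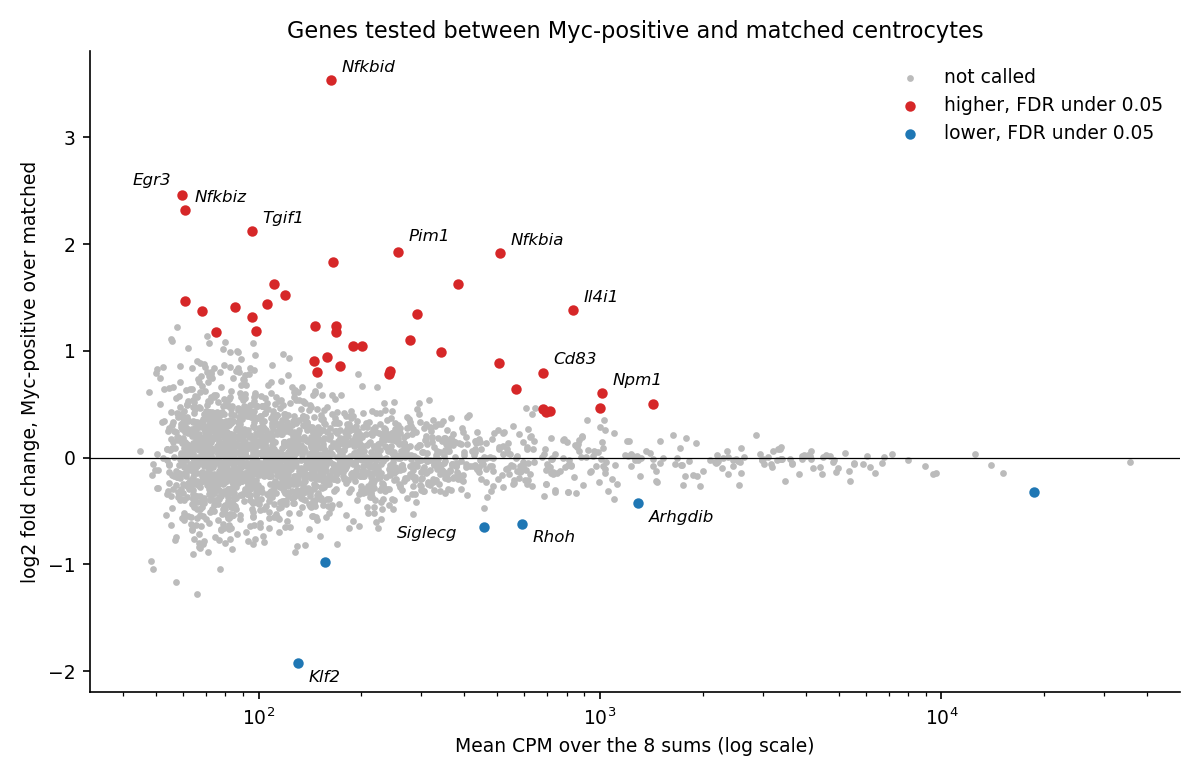
Log2 fold change of Myc-positive over matched Myc-negative centrocytes against mean CPM (log axis) for the 2358 genes tested. Red points are the 41 genes called higher and blue points the 6 called lower. Nfkbid lies highest and Klf2 lowest.

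The largest group was the CD40 and NF-kB list. It had 44 genes, of which 26 passed the filter, 14 were called higher and 0 lower, with a median log2 fold change of 1.00 compared with the background of 1.74% of genes called higher and a median near 0. The 14 were Nfkbia, Nfkbid, Nfkbiz, Rel, Relb, Traf1, Icam1, Birc3, Bcl2a1b, Slamf1, Gadd45b, Marcksl1, Il4i1 and Pim1. Summed over all 44 genes without any filter, the list took 8957 CPM in members and 4454 CPM in matched cells of WT, 8289 and 4106 in C, 8193 and 3956 in K, and 8031 and 4231 in CK. The mean log2 ratio of these sums was 1.00 (SD 0.05, n = 4 libraries), and no library of members overlapped a library of matched cells. Single genes without such overlap made up 3.18% of all tested in the higher direction and 1.36% in the lower.

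Of the 5 Nfkbi genes tested, which encode IkB inhibitors and nuclear partners of NF-kB, 3 were called higher, compared with 1.74% of all genes tested. Nfkbia was at 757, 843, 735 and 885 CPM in members of WT, C, K and CK and at 203, 259, 193 and 205 CPM in matched cells. The ranges stood far apart, and the log2 fold change was 1.91 (SE 0.14, adjusted p = 8.95e-10). Nfkbid, which encodes the nuclear IkB protein IkBNS, was at 586, 86.5, 378 and 170 CPM in members and at 16.3, 0, 46.2 and 19.5 CPM in matched cells. Its log2 fold change was 3.54 (SE 0.30, adjusted p = 1.54e-08), but the matched sums held only 17 UMIs, and with 5 matched cells per member it was 2.42 (SE 0.20, adjusted p = 6.29e-19). Among members Nfkbid ranged from 72 UMIs in the 22 WT cells to 8 UMIs in the 22 C cells. Nfkbiz, which encodes the nuclear protein IkBζ, was at 114, 108, 105 and 87.6 CPM against 16.3, 10.8, 29.4 and 14.6 CPM, with a log2 fold change of 2.32 (SE 0.38, adjusted p = 0.000368). Nfkbib (0.68, SE 0.27, adjusted p = 0.231) and Nfkbie (0.80, SE 0.28, adjusted p = 0.18), which encode further IkB proteins and are named after their values were seen, did not pass, and Nfkbie did with 5 matched cells (1.09, adjusted p = 0.000453).

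The NF-kB subunit genes Rel and Relb were also higher. Rel, encoding c-Rel, the subunit most used by activated B cells, was at 472, 573, 244 and 413 CPM in members of WT, C, K and CK, compared with 187, 151, 88.3 and 200 CPM in matched cells. It was lowest in K on both sides, and its log2 fold change was 1.35 (SE 0.17, adjusted p = 1.68e-05). Relb, the subunit of the slower non-canonical arm, rose by 1.19 on the log2 scale (SE 0.27, adjusted p = 0.0116), from 50.4 to 86.4 CPM in matched cells to 127 to 143 CPM in members. Relb lost its call without WT (adjusted p = 0.0715), without K (0.297) and without CK (0.0671), and Rel was called in all 4 such fits.

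Several NF-kB target genes were called higher as well. Birc3, encoding the ubiquitin ligase cIAP2 of the CD40 signaling complex, was at 146, 313, 130 and 112 CPM against 57.0, 21.6, 46.2 and 58.4 CPM (log2 fold change 1.63, SE 0.31, adjusted p = 0.00222). Bcl2a1b, a pro-survival Bcl2 family gene, was at 635, 400, 693 and 589 CPM in members and 228, 108, 139 and 273 CPM in matched cells (1.63, SE 0.17, adjusted p = 7.25e-07). Bcl2a1b has near-identical copies that share reads, so the value belongs to the family rather than to this copy alone. Il4i1, a secreted amino acid oxidase induced in B cells by CD40, was among the most abundant called genes, at 1155 to 1297 CPM in members and 303 to 584 CPM in matched cells (1.38, SE 0.13, adjusted p = 7.14e-08). The serine/threonine kinase gene Pim1 was at 374, 346, 441 and 438 CPM against 48.9, 184, 92.5 and 122 CPM (1.93, SE 0.21, adjusted p = 7.25e-07). In each of these 4 genes every library of members lay above every library of matched cells. Traf1, a CD40 adaptor, the adhesion molecule Icam1, Gadd45b, the signaling receptor Slamf1 and Marcksl1 rose by 0.64 to 1.23 on the log2 scale. The other 12 genes tested on the list were not called, among them the death receptor gene Fas (-0.17, SE 0.20, adjusted p = 0.79) and the lymphotoxin gene Ltb (0.04, SE 0.13, adjusted p = 0.953), named after their values were seen. Without the K library, Birc3 (adjusted p = 0.113), Icam1 (0.0891), Traf1 (0.339) and Slamf1 (0.114) were no longer called, and neither were Traf1 (0.0509) and Slamf1 (0.215) without CK.

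**Figure D3:**
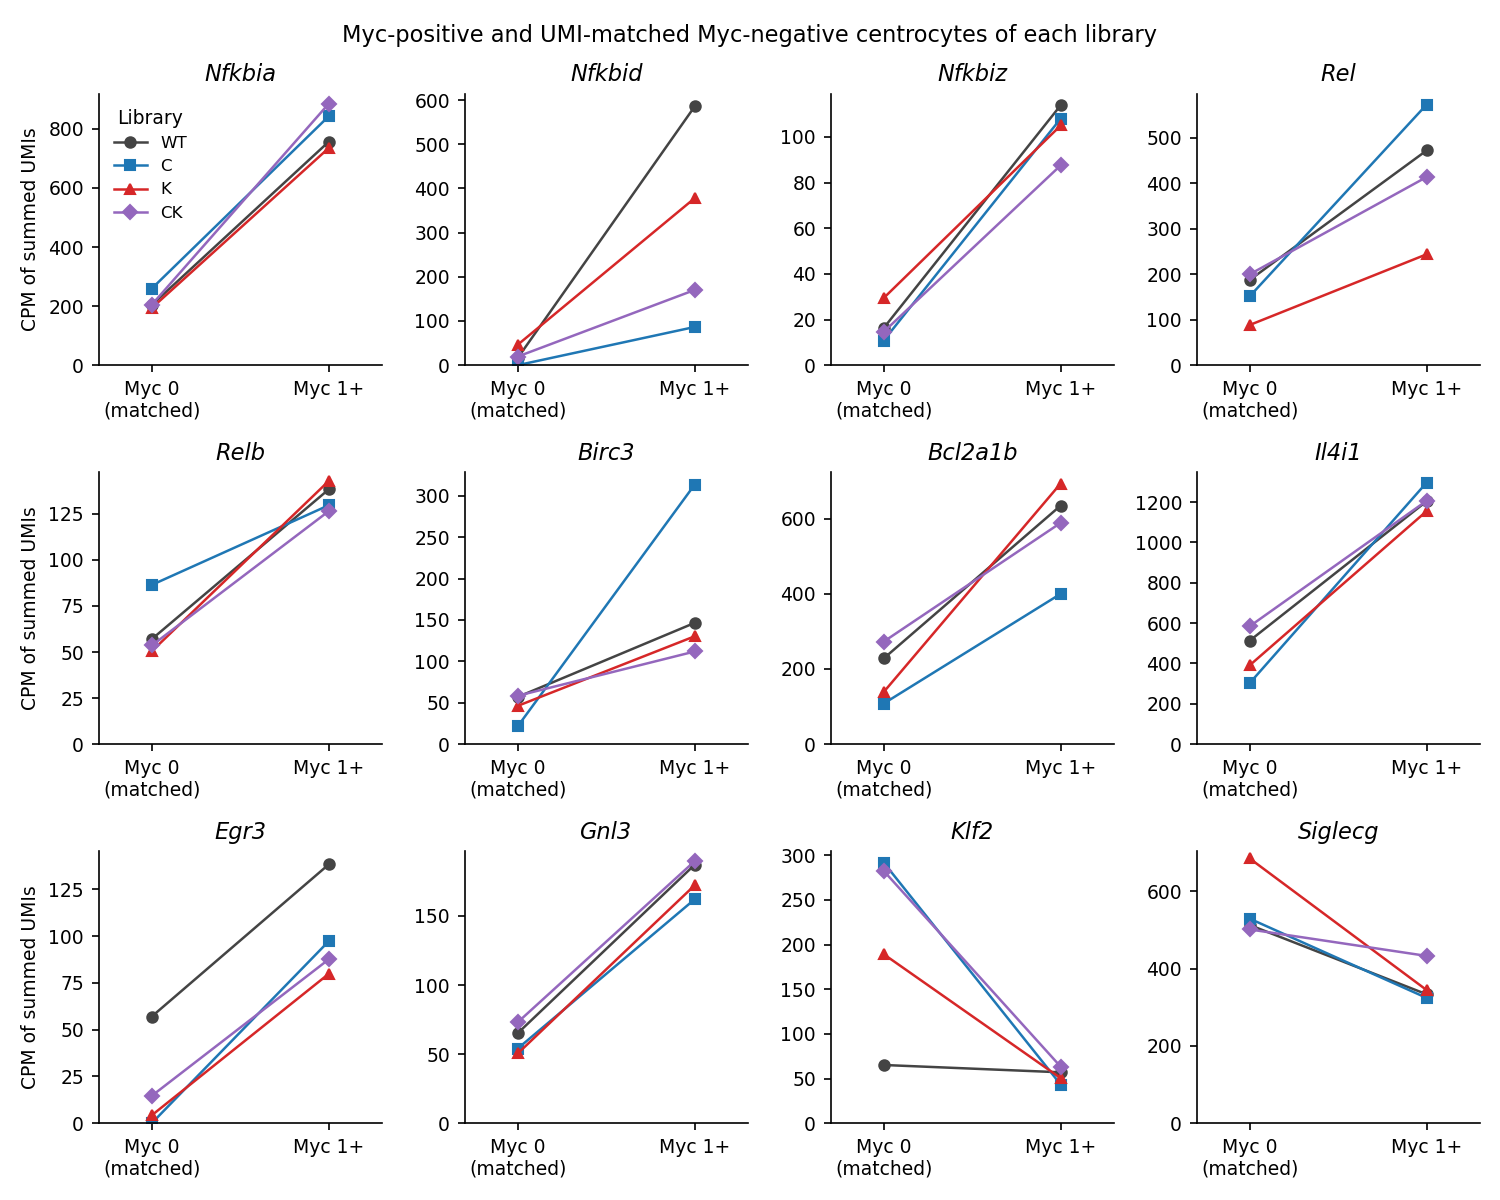
CPM of summed UMIs in matched Myc-negative (left of each panel) and Myc-positive centrocytes (right), 1 line per library, each axis starting at 0. Lines of the 10 genes called higher slope upward in all 4 libraries. Klf2 and Siglecg slope downward, and Klf2 does so least in WT, from 65.1 to 56.9 CPM.

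Immediate early genes of the B cell receptor were next. Of 28 listed, 11 were tested and 5 were higher, namely Egr3, Dusp2, Ier2, Junb and Cd69, with a median of 0.99. Over all genes tested, 1.74% were higher. Egr3 and Cd69, like Nfkbid, Nfkbiz and Birc3 above, passed the filter through the members, so counts and medians of tested genes can lean upward. Summed over all 28 genes without the filter, the mean log2 ratio was smaller, at 0.58 (SD 0.31, n = 4 libraries). Members were higher in 4 of 4 libraries. Egr3, a zinc finger factor induced within minutes of receptor ligation, was at 138, 97.3, 79.8 and 87.6 CPM in members and at 57.0, 0, 4.2 and 14.6 CPM in matched cells. Its log2 fold change was 2.46 (SE 0.45, adjusted p = 0.00156), and groups did not overlap. Dusp2, a phosphatase that dampens MAP kinases, was at 594 to 744 CPM against 334 to 378 CPM (0.89, SE 0.13, adjusted p = 7.36e-05). Junb, a subunit of the AP-1 transcription factor, was at 404 to 550 CPM against 170 to 281 CPM (0.99, SE 0.15, adjusted p = 0.000172). It was the 1 gene called among the 4 AP-1 family genes tested of 17 listed. Ier2 (log2 fold change 1.32) and the early activation antigen gene Cd69 (1.38) were called at adjusted p of 0.0237 and 0.0265, and Ier2 was equal in both sets of C cells, at 75.6 CPM. 5 of the 28 listed genes had no UMI in any member, among them Fosb and Atf3. Egr3 lost its call without K (2.09, adjusted p = 0.154), and Ier2 (adjusted p = 0.217) and Cd69 (0.20) lost theirs without WT.

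Of 23 positive selection factors, 11 were tested and 3 were higher, Nfkbia, Egr3 and Cd83, compared with 1.74% of all genes tested. Cd83 was at 407, 411, 622 and 472 CPM in matched cells, all below the members' 720 to 960 CPM (log2 fold change 0.80, SE 0.13, adjusted p = 0.000353). The costimulatory receptor gene Cd40 (0.85, SE 0.27, adjusted p = 0.124), the interleukin-21 receptor gene Il21r (0.42, SE 0.18, adjusted p = 0.308) and the costimulatory ligand gene Cd86 (-0.04, SE 0.22, adjusted p = 0.979) did not pass. Neither did Foxo1, a factor of the dark zone program (-0.22, SE 0.27, adjusted p = 0.80), Bach2, a repressor of the plasma cell fate (-0.08, SE 0.22, adjusted p = 0.941), or Xbp1, a factor of antibody secretion (-0.19, SE 0.25, adjusted p = 0.823). On the light zone list, 4 of 19 tested genes were higher, Cd83, Il4i1, Icam1 and Slamf1, compared with 1.74% of all genes tested. The list's median was -0.04. Light zone scores deposited by the study were higher in members in 4 of 4 libraries, by 0.0424 score units (SD 0.0117, exact sign-change p = 0.125, 0.25 after adjustment over 10 scores). The score for a second light zone signature, LZ DECP, was 0.0717 higher (SD 0.0110) and that for genes up in GFP-MYC positive GC B cells 0.0205 higher (SD 0.0117), each in 4 of 4 libraries and with the same exact p. GFP-MYC down scores were lower in 3 of 4, by a mean of -0.0278 (SD 0.0261). Whether these signatures hold Myc itself is not given in the sources used here.

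Ccnd2, Batf and Mir155hg, the host transcript of the microRNA miR-155, had too few UMIs to pass the filter in the test above. Fitted without the filter (11368 genes, 0.449% called higher and 0.0616% lower), Batf had a log2 fold change of 2.49 (SE 0.32, adjusted p = 7.16e-12), Ccnd2 2.35 (SE 0.40, adjusted p = 3.18e-06) and Mir155hg 2.98 (SE 0.35, adjusted p = 3.40e-14). With 5 matched cells per member, where all 3 passed the filter and 2.48% of 4194 genes were called higher, they were 2.26, 2.21 and 2.80. Irf4, a factor needed for both GC entry and plasma cell fate, had 20 UMIs in members and 3 in matched cells and was not called (2.56, SE 0.75, adjusted p = 0.0911 without the filter).

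These 3 genes had lower CPM in the members of WT than in those of the other genotypes, a contrast noticed after the values were seen. Ccnd2 had 0 UMIs in WT members, 6 in C, 43 in K and 22 in CK, or 0, 64.8, 181 and 107 CPM. The 0 in WT, among 122920 UMIs, allows up to 24.4 CPM. The Ccnd2 level stood 2.66-fold above that limit in C, 7.40-fold in K and 4.38-fold in CK members. With the counting error of both sides, the exact 95% intervals of the ratio to WT began at 1.56, 5.77 and 3.28 for C, K and CK. Prememory cells of WT had 305 CPM of Ccnd2, near the 263 to 328 CPM of the other libraries, so the transcript was captured in that library.

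Batf was at 40.7 CPM in WT members, with 5 UMIs in 4 cells, and at 205, 277 and 161 CPM in C, K and CK. The ratio to WT was 5.05 in C (exact 95% interval 1.82 to 17.3), 6.82 in K (2.78 to 21.7) and 3.95 in CK (1.53 to 13.0). Mir155hg was at 32.5 CPM in WT members and at 184, 227 and 204 CPM in the others, with ratios of 5.65 (1.84 to 23.1), 6.97 (2.57 to 26.5) and 6.28 (2.28 to 24.1). The UMIs came from few cells: 4, 3, 13 and 15 members of WT, C, K and CK held a Batf UMI. Members with Batf were thus no more common in C than in WT. The intervals take each UMI as a separate draw and do not cover this clumping in cells. Nfkbid went the other way and was highest in WT, whereas Nfkbia differed little, with ratios to WT of 1.11 in C (0.81 to 1.52), 0.97 in K (0.75 to 1.26) and 1.17 in CK (0.91 to 1.52). In matched Myc-negative cells of WT, C, K and CK, Batf was at 0, 10.8, 37.8 and 53.6 CPM. The exact 95% intervals of the ratio to WT there began at 0.034, 1.02 and 1.501 for C, K and CK. The low Batf of WT was thus not confined to members. Ccnd2 in matched cells was at 8.14, 0, 16.8 and 38.95 CPM, and Mir155hg at 24.4, 10.8, 8.41 and 38.95 CPM. Neither was lowest in WT. With 1 mouse a genotype, a difference between genotypes and one between mice cannot be told apart.

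The level of these genes also varied with the number of Myc UMIs in a cell. Nfkbia was at 213, 237, 176 and 242 CPM in centrocytes of WT, C, K and CK with no Myc UMI, at 620, 580, 708 and 766 CPM in those with 1, and at 1034, 1480, 759 and 1197 CPM in those with 2 or more. The order was the same in all 4 libraries. Gnl3, encoding the nucleolar GTPase nucleostemin, went from 38.4 to 49.1 CPM through 117 to 155 CPM to 221 to 320 CPM. Pim1 went from 94.4 to 128 CPM through 214 to 363 CPM to 546 to 666 CPM. In cells with 2 or more Myc UMIs, Batf was at 24.6 CPM in WT and at 703, 395 and 352 CPM in C, K and CK, and Ccnd2 was at 0 in WT and at 185, 300 and 176 CPM. The counts behind WT were small, with 8 cells in the class. Bcl6, which encodes the repressor that maintains the GC program, was at 64.5, 65.9, 45.5 and 58.3 CPM for WT, C, K and CK without Myc, at 24.3, 0, 8.97 and 26.9 CPM with 1 Myc UMI, and at 73.8, 37.0, 15.8 and 17.6 CPM with 2 or more. These last values rested on 1 to 3 UMIs a library, and that of WT was above its cells without Myc.

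**Figure D4:**
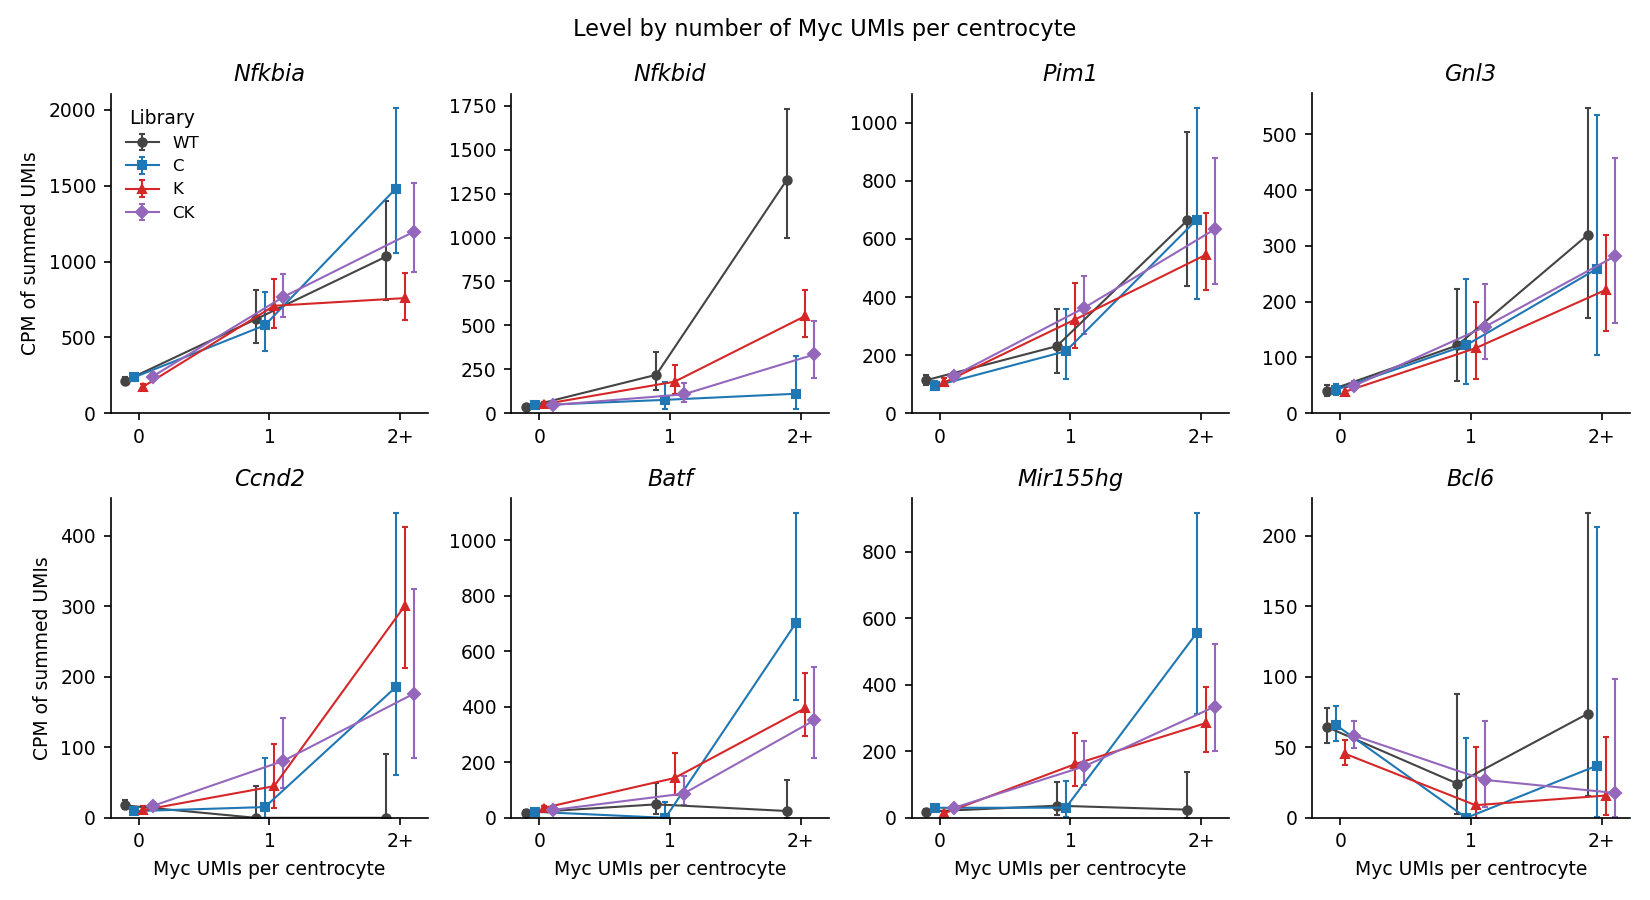
CPM of summed UMIs in annotated centrocytes with 0, 1 and 2 or more Myc UMIs, 1 line per library, with exact 95% Poisson intervals that cover counting error only. Nfkbia, Pim1 and Gnl3 climb in every library, while Ccnd2, Batf and Mir155hg stay low in WT and climb in C, K and CK.

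Fewer growth genes than NF-kB genes were called. On the ribosome biogenesis list, 30 of 60 genes were tested, 2 were higher and 0 lower, with a median of 0.45. Over all genes tested, 1.74% were higher and the median was near 0, so the list was above the background. With 5 matched cells per member, 8 of 45 tested were higher, compared with 2.48% of all genes. Gnl3 was at 187, 162, 172 and 190 CPM in members and 65.1, 54.0, 50.4 and 73.0 CPM in matched cells (log2 fold change 1.53, SE 0.24, adjusted p = 0.000271). Npm1, the abundant nucleolar chaperone gene, was at 1106, 832, 1756 and 1202 CPM against 725, 659, 912 and 901 CPM (0.61, SE 0.11, adjusted p = 0.000851), and its groups overlapped. Without K its call was lost (0.44, adjusted p = 0.173). The RNA helicase gene Ddx21 (0.94, adjusted p = 0.0555) and the ribosome assembly gene Rrs1 (1.00, adjusted p = 0.0615) did not pass here and did with 5 matched cells (0.82, adjusted p = 0.00256, and 0.81, adjusted p = 0.0112). Summed over all 60 genes the list was higher in members of all 4 libraries, at 6110 against 4519 CPM in WT, 5144 against 4581 in C, 8692 against 4586 in K and 7200 against 5556 in CK. K members had the highest sum and C members the lowest.

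Among translation factors and chaperones, 2 of 31 tested were higher, Hspa8 (0.50, SE 0.11, adjusted p = 0.0114) and Hsp90aa1 (0.81, SE 0.18, adjusted p = 0.0135), both cytosolic chaperones, with a list median of 0.28. With 5 matched cells per member, 6 of 33 were higher. The shares of all genes called higher were 1.74% in the main test and 2.48% with 5 matched cells. Summed, that list was lower in C members than in matched cells, at 10353 against 10945 CPM. Hspa8 was not higher in C, at 1135 CPM in members and 1188 in matched cells, and lost its call without K (0.32, adjusted p = 0.566) and without CK (0.41, adjusted p = 0.152). Hsp90aa1 lost its call without K (0.51, adjusted p = 0.514) and with 5 matched cells (0.38, adjusted p = 0.10). The cap-binding factor gene Eif4e did not pass (1.14, SE 0.32, adjusted p = 0.0615), and did with 5 matched cells (0.85, adjusted p = 0.0169). Of 9 mTORC1 and amino acid transport genes tested, 1 was higher, the glutamine transporter gene Slc38a2, at 439, 422, 353 and 292 CPM against 220, 216, 130 and 146 CPM (1.10, SE 0.17, adjusted p = 0.000157), while the list's sum in CK was 1839 against 1884 CPM. None of 7 nucleotide and polyamine genes was called (median 0.29; the sum in C was 1480.5 against 1664 CPM), with Nme1 at 0.40 (adjusted p = 0.262) and Impdh2 at 0.40 (adjusted p = 0.52). None of 9 glycolysis genes was called (median 0.06; the sum in C was 3815 against 4192 CPM), with Gapdh at -0.05 (SE 0.07) and Ldha at 0.27 (SE 0.13). The mitochondrial matrix protein gene C1qbp, on the positive selection list, was at 449 CPM in K members against 122 CPM in matched cells and at 130 against 173 CPM in C (0.79, SE 0.25, adjusted p = 0.124). Without C it was called (0.96, adjusted p = 0.000496), and so was Nme1 (0.59, adjusted p = 0.0105).

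**Figure D5:**
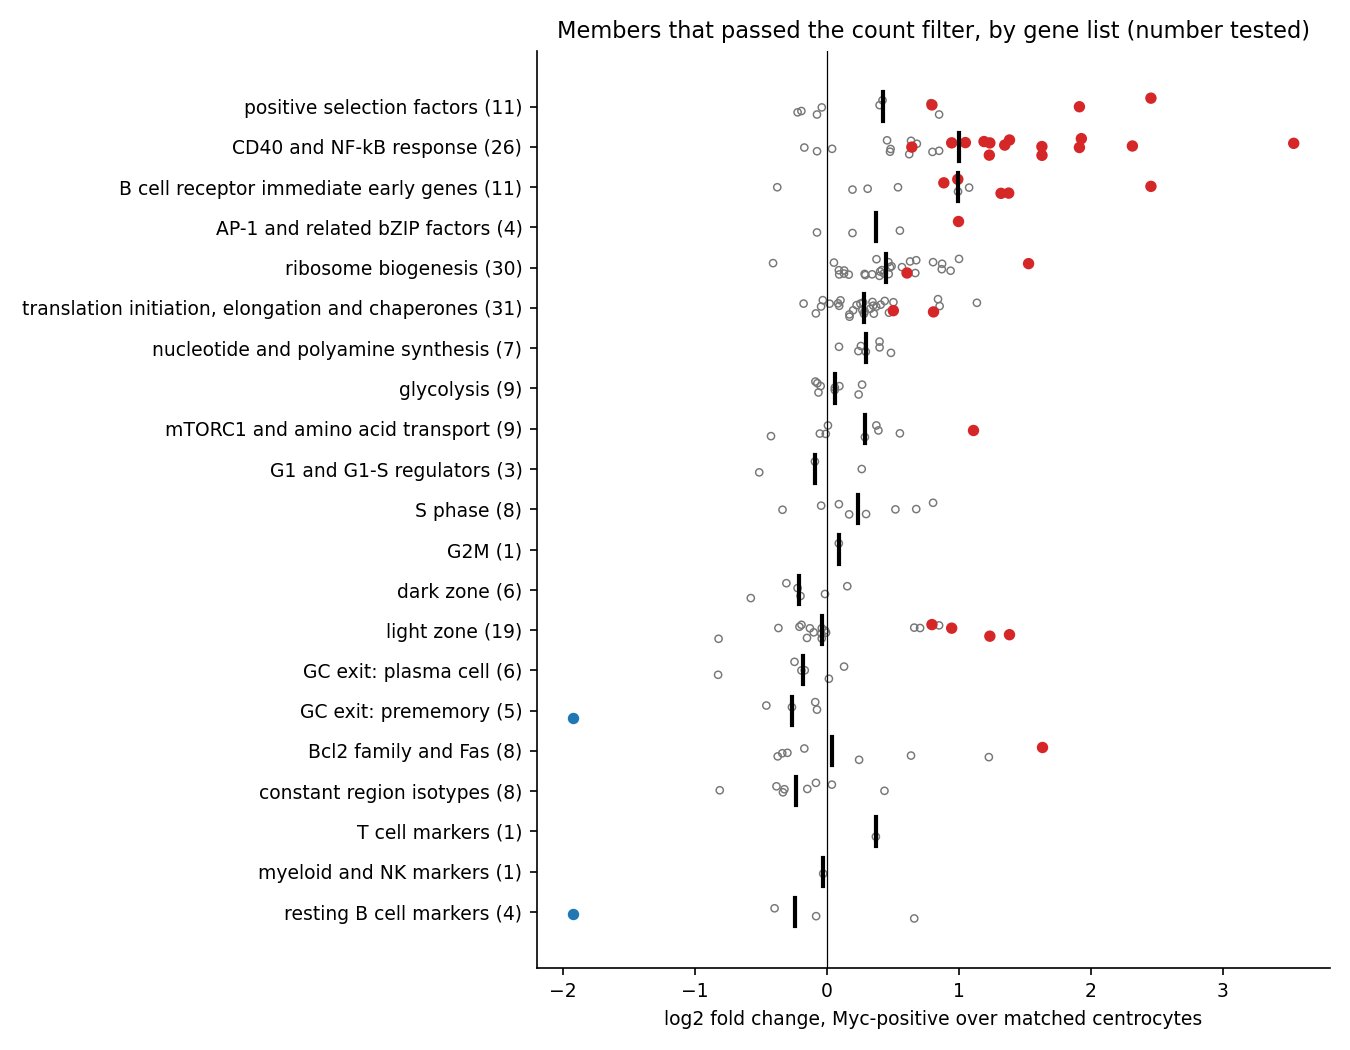
Log2 fold change of each list member that passed the count filter, with the number tested in brackets. Filled points are genes called higher (red) or lower (blue), open points were not called, and black bars are medians. The CD40 and NF-kB list and the B cell receptor list have medians near 1, and cell cycle lists hold no called gene.

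Cell cycle genes were rarely captured in centrocytes and none was called in the main test. Of 22 G1 and G1-S genes 3 were tested, of 30 S phase genes 8 and of 30 G2M genes 1, with medians of -0.09, 0.23 and 0.09. The replication helicase genes Mcm5 (0.80, SE 0.29, adjusted p = 0.193) and Mcm6 (0.52, SE 0.26, adjusted p = 0.398) did not pass here and did with 5 matched cells (0.92, adjusted p = 0.00713, and 0.70, adjusted p = 0.0153). The kinase gene Cdk4 was at 0.26 (SE 0.21, adjusted p = 0.646) and Ccnd3, the cyclin of dark zone division, at -0.51 (SE 0.18, adjusted p = 0.186). The deposited S-phase and G2M scores were each higher in some libraries and lower in others, with mean differences of 0.00157 (SD 0.00988) and 0.00134 (SD 0.0266).

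6 genes were lower in members, and 4 of them met the naming rule. Klf2, a factor that promotes quiescence and egress of lymphocytes, was at 56.9, 43.2, 50.4 and 63.2 CPM in members of WT, C, K and CK and at 65.1, 292, 189 and 282 CPM in matched cells. Its log2 fold change was -1.93 (SE 0.27, adjusted p = 6.49e-05). Klf2 passed the filter on low counts through the matched cells, where it was high, so its place among the lowest folds can lean downward. The WT pair was nearly level, and 360 WT centrocytes without Myc averaged 163 CPM. Siglecg, an inhibitory receptor gene of B cells, was at 324 to 433 CPM against 501 to 685 CPM (-0.65, SE 0.14, adjusted p = 0.00935). Rhoh, encoding a small GTPase of blood cells, changed by -0.62 (SE 0.13, adjusted p = 0.00415) and Arhgdib by -0.42 (SE 0.09, adjusted p = 0.00514). The members and matched cells did not overlap in any of the 4. Klf2 was called without WT and without C and did not pass the filter on low counts without K or without CK. Siglecg was not called without WT (adjusted p = 0.0715) or without K (0.452), nor Rhoh (0.0596 and 0.132), and Arhgdib lost its call without K (0.26).

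Bcl6 and Ccnd3, genes of the GC program, were not called in the main test. With 5 matched cells per member, where 1.19% of genes were called lower, Bcl6 (-1.26, SE 0.36, adjusted p = 0.0262) and Ccnd3 (-0.59, SE 0.15, adjusted p = 0.00936) passed. Of the dark zone list, 6 of 13 genes were tested and none called (median -0.21). None of 8 constant region genes was called either (median -0.24), and 5 of 9 were lower with 5 matched cells. No gene of the plasma cell list was called among 6 tested (median -0.18). Klf2 was the 1 called among 5 prememory genes, compared with 0.254% of all genes tested called lower.

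Outside these lists the naming rule gave Tgif1 and Siah2. Tgif1, encoding a homeodomain repressor of TGF-β signaling, was at 155, 119, 185 and 180 CPM against 16.3, 10.8, 50.4 and 48.7 CPM (log2 fold change 2.12, SE 0.29, adjusted p = 4.03e-05). Tgif1 passed the filter on low counts through the members, where it was high, so its place among the highest folds can lean upward. Siah2, encoding a ubiquitin ligase, was at 146, 281, 332 and 282 CPM against 57.0, 43.2, 84.1 and 92.5 CPM (1.83, SE 0.23, adjusted p = 8.16e-06). Neither overlapped between members and matched cells.

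Markers of other cells were near the floor. Of 13 T cell genes 1 passed the filter, Lck, which B cells can also transcribe, and it was not called (0.37, SE 0.23, adjusted p = 0.529). The list summed to 252, 151, 319 and 282 CPM in members of WT, C, K and CK and to 269, 162, 156 and 243 CPM in matched cells, and Cd3e was at 0, 0, 0 and 4.86 CPM in members. Of 10 myeloid and NK genes, 7 had no UMI in any member, Lyz2 among them. The resting B cell genes summed to 655 to 951 CPM in members and 849 to 988 CPM in matched cells, with the low-affinity IgE receptor gene Fcer2a at 0.66 (SE 0.19, adjusted p = 0.0687, and 0.000389 with 5 matched cells). Scrublet called 2 members and 4 matched cells as doublets, and without such calls 48 genes were higher and 9 lower.

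The same contrast was run in the neighbouring subtypes after the data were seen. In 75 Myc-positive prememory cells, 9 of 951 genes were higher than in matched cells (0.946%) and 2 lower (0.21%). Of the 9, 8 were also called in centrocytes, among them Nfkbid (2.14, SE 0.30, adjusted p = 1.06e-09), Il4i1 (1.65, SE 0.21, adjusted p = 3.39e-12), Bcl2a1b (1.65, SE 0.31, adjusted p = 2.67e-05), Cd83 (1.14, SE 0.27, adjusted p = 0.00277) and Dusp2 (1.03, SE 0.23, adjusted p = 0.00154). Other genes called in centrocytes were not called in prememory cells, among them Nfkbia (0.77, SE 0.24, adjusted p = 0.102), Pim1 (0.58, SE 0.36, adjusted p = 0.687) and Npm1 (-0.07, SE 0.13, adjusted p = 0.969). No gene of 2358 passed the test of the difference between prememory cells and centrocytes, and 131 had an unadjusted p under 0.05. In that test the log2 fold change of Nfkbia was 1.11 lower in prememory cells (interaction -1.11, adjusted p = 0.185).

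In 112 Myc-positive transitioning cells edgeR called none of 2305 genes (0%) in either direction, and 117 had an unadjusted p under 0.05. 1 gene, Pim1, differed from centrocytes in the test of the difference itself. Pim1 was at 344, 261, 211 and 231 CPM in Myc-positive transitioning cells and at 255, 362, 260 and 268 CPM in matched ones, so its log2 fold change was 2.08 lower there than in centrocytes (adjusted p = 2.87e-06). Matched centrocytes had less Pim1 than matched transitioning cells in all 4 libraries, and Myc-positive centrocytes had more than Myc-positive transitioning cells in all 4. Nfkbia was at 226, 50.3, 152 and 204 CPM against 58.8, 50.2, 44.2 and 37.0 CPM in transitioning cells, and its difference from centrocytes was not called (-0.05, adjusted p = 0.995).

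RefSeq start sites were matched for 28 of the 41 genes called higher. The kB site occurred within 250 bases before a start in 3 of them (10.7%), the genes printed above, compared with 4.69% of 1876 tested genes with a start site and 4.46% of 27025 genes in all. The E-box CACGTG, the motif that MYC-MAX dimers bind, occurred in 4 of the 28 (14.3%), Pim1, Dusp2, Gadd45b and D10Wsu102e, compared with 10.9% of tested genes and 6.86% of all. D10Wsu102e is named only for this count, after its values were seen. A match is a run of letters and not a bound site, and genes without a match may hold one beyond this window.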

How the data were processed

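Per the study's methods and the labels, the authors sorted the cells, made 10x Genomics 3' libraries, aligned and counted them with Cell Ranger (3.0 per the processing notes, build mm10) and annotated GC B cells with Seurat 4.0. The deposited matrices hold raw UMI counts of 31053 genes, from 33270825 to 39803865 UMIs a library. The deposited cell table gives subtype, the authors' module scores, a mitochondrial percent, counts of spliced and unspliced molecules and a pseudotime score per cell. Intervals cover counting error only.

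Each member was matched without replacement to the Myc-negative centrocyte of its library with the nearest log UMI total (Myc excluded). Summed counts, 2 per library, were fitted with edgeR 4.0.16 (filterByExpr, TMM, library block, 3 residual degrees of freedom). Each library is another genotype, so the contrast was taken over 4 mice. The quasi-likelihood fit pools the spread of each gene with that of all genes tested. The p-values therefore do not measure the spread of a single gene over 4 mice alone. On simulated counts of 2130 genes for this comparison, 80.6% of genes changed by 1 log2 unit and 100% of those changed by 2 were called, with 8 false calls. The changed genes were drawn from the better captured ones and all genes had the same fixed spread. These shares therefore do not carry over to genes with few UMIs. Scores were compared with exact sign-change tests. DESeq2 1.42.0 and Scrublet (through scanpy 1.11.5) served in alternatives. Genes named were Myc, Ccnd2, Nfkbia, Batf, the positive selection list, up to 4 members of every other list by lowest p, members of counts of 5 or fewer, and the 10 highest and 10 lowest called folds at 50 CPM or more with 1 sign in all libraries. Members, lists and tests were chosen with earlier results of these data known.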

Additional observations from a re-analysis of the deposited data

Results flagged for a closer look

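Outside the annotated GC B cells, Myc UMIs were found in 6.60% of barcodes of WT, 6.36% of C, 6.27% of K and 4.81% of CK, in data that no comparison above used. Among the barcodes with 2 or more of Cd3d, Cd3e and Cd3g, the shares were 11.1%, 9.94%, 9.36% and 6.78%.

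The log2 fold change of Pim1 between Myc-positive and matched cells was 2.08 lower in transitioning cells than in centrocytes (interaction -2.08, adjusted p = 2.87e-06, edgeR), with centrocyte pairs higher in 4 of 4 libraries and transitioning pairs in 1.

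For 4 of the genes named above that were called in the main fit, without the filter on low counts or with 5 matched cells, 1 library moved against the other libraries, and these differences between genotypes were not tested. Ccnd2 in WT was 8.14 CPM lower in members than in matched cells (a difference of -8.14 CPM). Hspa8 and C1qbp did so in C, with differences of -53.8 CPM and -43.2 CPM, and Mcm6 did so in CK, with -39.1 CPM.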

How the results depend on the processing

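Members were few, most had 1 Myc UMI, and 4 libraries gave 3 residual degrees of freedom, so genes under about 50 CPM could not be tested. Replicate numbers did not pair samples across genotypes, and the main fit blocks on library. In all settings run, every gene called in the main fit that could be tested kept its direction. Against 41 higher and 6 lower genes, DESeq2 gave 16 and 1, the fit without the library block 19 and 1, all Myc-negative centrocytes unmatched 220 and 126, matching on genes per cell 70 and 29, thinning to 2000 UMIs 21 higher (1012 genes tested), matching on UMIs and S-phase score 11 lower, 2 or more Myc UMIs 19 lower, and 5 matched cells per member, chosen after seeing the data, 104 and 50. DESeq2 did not call Birc3, Relb, Traf1, Icam1, Gadd45b, Marcksl1, Slamf1, Ier2, Cd69, Hspa8, Hsp90aa1, Siglecg, Rhoh and Arhgdib. A fit with 5 matched cells and no filter on low counts was tried after seeing the data and left out, because its median over all genes moved away from 0. Leaving out each library in turn gave 17 to 64 higher and 0 to 31 lower genes, with 17 and 0 without K (149 genes at an unadjusted p under 0.05), 64 and 31 without C, 27 and 6 without CK and 30 and 3 without WT. With 2 or more Myc UMIs the shares were 2.09%, 1.17%, 3.76% and 1.39% for WT, C, K and CK, and thinned they were 3.24% for WT and 4.78% for K. Small differences that were not called changed sign. The dark zone score difference was -0.00851 unmatched, -0.000298 with 2 or more Myc UMIs and -0.00020 with 5 matched cells. The S-phase score was -0.00383 unmatched, -0.00406 matched on genes and -0.00203 to 0.00461 without 1 library. The G2M score was -0.0135, -0.00569, -0.00409 with 2 or more Myc UMIs, -0.00432 with 5 matched cells and -0.0119 to 0.00656 without 1 library. The pseudotime percentile, -1.17 in the main setting, was 0.0762 without Scrublet calls and -3.01 to 1.17 without 1 library. Cd86 was 0.000336 with no library block, 0.10 unmatched, 0.44 matched on genes, 0.20 on UMIs and S-phase score, 0.085 thinned, 0.010 without Scrublet calls, 0.073 with 5 matched cells and -0.17 to 0.14 without 1 library. Bach2 was 0.0010 matched on UMIs and S-phase score, 0.169 thinned, 0.062 with 5 matched cells and -0.31 to 0.071 without 1 library, and Xbp1 0.18 matched on UMIs and S-phase score and -0.33 to 0.062 without 1 library. Ltb was -0.081 unmatched, -0.018 matched on genes, -0.32 with 2 or more Myc UMIs and -0.067 to 0.16 without 1 library. Gapdh was 0.023 with 2 or more Myc UMIs, and Lck -0.055 to 0.56 without 1 library.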
